A study of Mus musculus with 4 samples.

Results

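In BAT of mice with an activatable PERK kinase, the mean signal of Trib3 was 23.8-fold higher 12 h after the activating ligand AP than after vehicle, and those of Ddit3, Nupr1 and Jdp2 were 3.05-fold, 2.52-fold and 2.14-fold higher (2 mice per group). No probe of the array passed a test adjusted over all probes. The genes described are 9: Atf4, Atf5, Atf3, Ddit3, Cebpb, Cebpg, Nupr1 and Jdp2, which encode transcription regulators, and Trib3, which encodes a pseudokinase. They were chosen as the core transcription factors of the integrated stress response (ISR) and their partner Trib3, by a rule that names them and was written with earlier results of these data known, and every probe that the array carries for them was taken. They make up 9 of the 12791 named genes tested.

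The ISR starts when a kinase such as PERK phosphorylates the translation initiation factor eIF2α. General translation then drops, while messages with inhibitory upstream reading frames, Atf4 and Atf5 among them, are translated more. ATF4 activates genes of amino acid supply and further regulators such as Ddit3, which encodes CHOP, and Trib3, whose product binds ATF4 and CHOP and restrains them. A change in Atf4 translation need not alter its RNA, and the arrays measured RNA alone.

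The comparison was made in the search for a signal that adipose tissue with an active ISR could send to the brain to act on feeding. Male Tg mice of 8 weeks of age carried Fv2E-PERK, the kinase domain of PERK fused to a dimerization domain, under the maP2 (Fabp4) promoter on a C57/BL6N background. The vehicle group (2 mice) was injected intraperitoneally with water holding 4% ethanol, 10% PEG-400 and Tween-20 at 1.75%. The AP group (2 mice) received AP20187 (AP), the ligand that dimerizes the kinase, and BAT was taken after 12 h in both. The dose is 1 ng/g in the sample labels and 0.05 mg/kg in the figure legend, which do not match. Both groups carried the transgene, and no array of AP-treated mice without it was used, so an effect of AP itself and of the activated kinase cannot be told apart. The promoter is also active in macrophages. In a whole tissue, fewer cells of a type and less RNA per cell cannot be told apart either.

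Each mouse had its own 1-color array of 55681 distinct probes. The share of probes well above background was 46.8% and 49.0% in vehicle mice 1 and 2 and 46.4% in each AP mouse, and 0 spots were saturated. Each signal was put on the log2 scale and expressed relative to the 75th percentile of its array, so that 0 is that percentile and 1 unit is a 2-fold difference. Brightness differs between probes for the same amount of RNA, so values are compared between mice, and the brightness of a probe is not read as the abundance of its RNA against another. All 4 arrays shared 1 slide and 1 scan. The AP arrays occupied positions 3 and 4 of column 1, while each vehicle array occupied position 1, in column 1 or 2, so position and treatment cannot be told apart.

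The label of the tissue fitted its markers: all 15 brown adipocyte markers, Ucp1 and Cidea among them, were well above background on all 4 arrays. The list also holds Fabp4, whose promoter is active in white fat too. The summed signal of the 15 markers, in units of the 75th percentile, was 9032 and 6055 in vehicle mice 1 and 2. In AP mice 1 and 2 it was 7391 and 8247. As AP minus vehicle, 10 of the 15 had a log2 fold change above 0 and 5 below 0, with a median of 0.18. Without vehicle mouse 2 the median was -0.11. For this and the lists below, 51.4% of all genes tested had a log2 fold change above 0. Both AP mice were above both vehicle mice for 20.1% of all genes tested and below for 17.3%. Adrb3 was at -1.20, with both AP mice below both vehicle mice. Some markers differed widely within a group. The log2 signal of Elovl3 was 6.08 and -1.07 in vehicle mice 1 and 2. That of Dio2 was -1.78 and 3.33 in AP mice 1 and 2. The vehicle mice lay at both ends of the skeletal muscle signal. All 12 muscle markers were highest on the array of vehicle mouse 2, and their sum in these units was 61.4 and 1135 in vehicle mice 1 and 2 and 718 and 396 in AP mice 1 and 2. Vehicle mouse 1 was thus far below the other 3 mice. The Tnnc2 probe was the brightest of the list on average over the 4 arrays. Of 11 lymphocyte and MHC class II markers, 10 were also highest in vehicle mouse 2, with sums of 29.6, 98.7, 35.9 and 34.4 in the same order, the highest mean signal at the H2-Ab1 probe, and Cd79a well above background on no array. Of 10 macrophage markers, 7 were highest in this mouse, with sums of 37.6, 49.8, 30.7 and 29.0, the highest mean signal over the 4 arrays at the Itgam probe, and Cd163 well above background on no array. White adipocyte markers were dim, with sums of 1.31, 2.92, 0.93 and 0.92, the highest mean signal at the Lep probe, and 5 of 7 (Hoxc8, Hoxc9, Hoxc10, Tcf21 and Wt1) well above background on no array. The 5 endothelial markers summed to between 33.4 and 38.8, and the 4 erythroid markers, with the highest mean signal at the Hba-a1 probe, to 517, 334, 252 and 364. As AP minus vehicle, all 12 muscle markers had a log2 fold change above 0, with a median of 0.91, but with groups apart for 0 of them. That median was -1.26 without vehicle mouse 1, 3.09 without vehicle mouse 2 and 0.45 without AP mouse 1. With normexp background correction 11 of 12 muscle markers were above 0, and Mylpf was at -0.11. All 9 macrophage markers tested were below 0 (median -0.45, and -0.04 without vehicle mouse 2), as were all 7 lymphocyte and MHC class II markers tested (median -0.65). The latter median was -1.51 without vehicle mouse 1, 0.44 without vehicle mouse 2 and -0.26 with normexp. All 3 erythroid markers tested were also below 0 (median -0.46, and -0.14 without vehicle mouse 1). The part of other cell types in the values of the 9 genes was not tested. For the 9 genes, differences are also given without a mouse where that moved them by over 1.5 times or turned them.

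**Figure D1:**
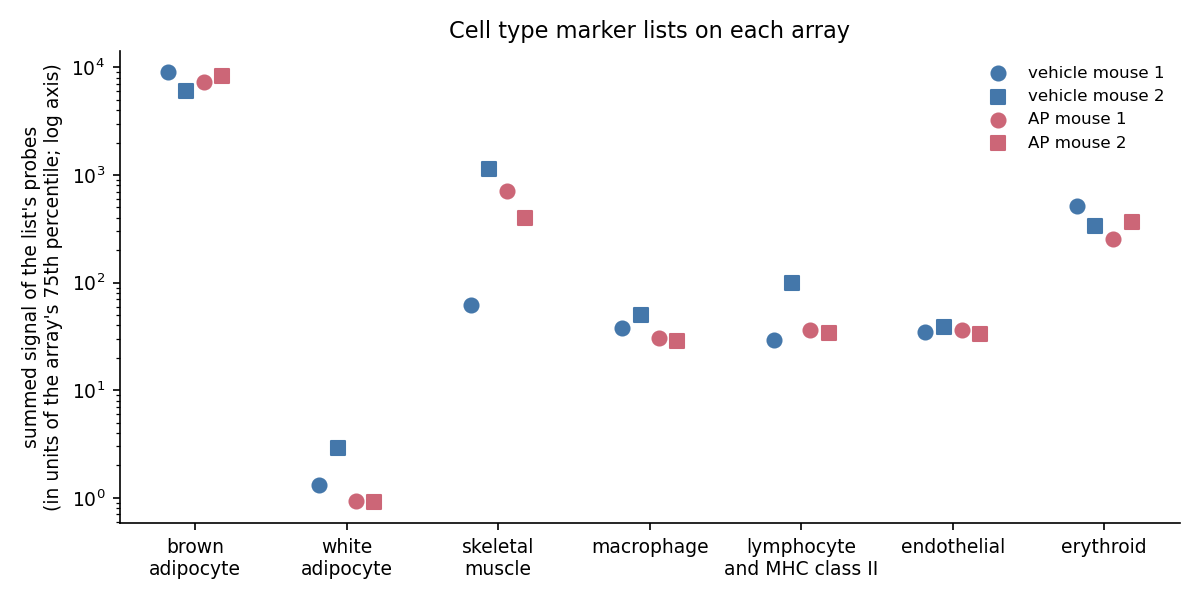
Summed signal of the probes of each cell type marker list on each array, in units of the 75th percentile of the array, on a log axis. Points are single mice. The muscle sum is lowest in vehicle mouse 1 (61.4) and highest in vehicle mouse 2 (1135), while the brown adipocyte sums lie between 6055 and 9032.

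For the 9 genes, the 250 bases before the annotated starts were read from RefSeq windows of GRCm38.p6 (12 windows, since Atf5 has 2 annotated starts and Jdp2 has 3). They were searched on both strands for the core of the C/EBP-ATF element (TGATGNAA), to which ATF4 binds together with a C/EBP partner, for the cAMP response element (TGACGTCA) and for the AP-1 element (TGACTCA). The core was found in windows of Nupr1, Atf3 and Jdp2, that is 3 of 12 windows, against 3.45% of all 32851 windows of this length. These 3 stretches are printed because they carry that element, with up to 35 bases on each side and the match in capitals, 5′ to 3′ on the strand of the gene.
Nupr1: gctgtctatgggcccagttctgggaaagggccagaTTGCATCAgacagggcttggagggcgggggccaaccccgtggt
Atf3: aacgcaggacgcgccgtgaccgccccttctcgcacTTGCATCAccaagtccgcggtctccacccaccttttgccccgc
Jdp2, start 2: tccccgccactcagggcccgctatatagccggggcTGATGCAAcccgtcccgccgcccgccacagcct

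The Nupr1 stretch is chr7:126625538-126625615 on the minus strand, the Atf3 stretch is chr1:191183401-191183478 on the minus strand, and the Jdp2 stretch is chr12:85599348-85599415 on the plus strand. In Nupr1 and Atf3 the same 8 bases, TTGCATCA, lie at the same place, from -110 to -103 counted back from the start, and read on the opposite strand. In Jdp2 the match lies from -33 to -26. Ddit3 had 1 AP-1 match, at its far end from -242 to -236, which 4.46% of all windows also hold:
Ddit3: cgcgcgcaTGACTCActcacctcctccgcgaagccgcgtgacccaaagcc
This stretch is chr10:127290543-127290592 on the plus strand. The window of Trib3 (chr2:152344061-152344310, minus strand), that of Atf4 (chr15:80254934-80255183, plus strand) and those of Atf5, Cebpb and Cebpg held none of the 3 motifs, and 0 of 12 windows held the cAMP response element, against 1.55% of all. A match of letters is a description and not a binding site, and a window without one says only that these letters are not in it.

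**Figure D2:**
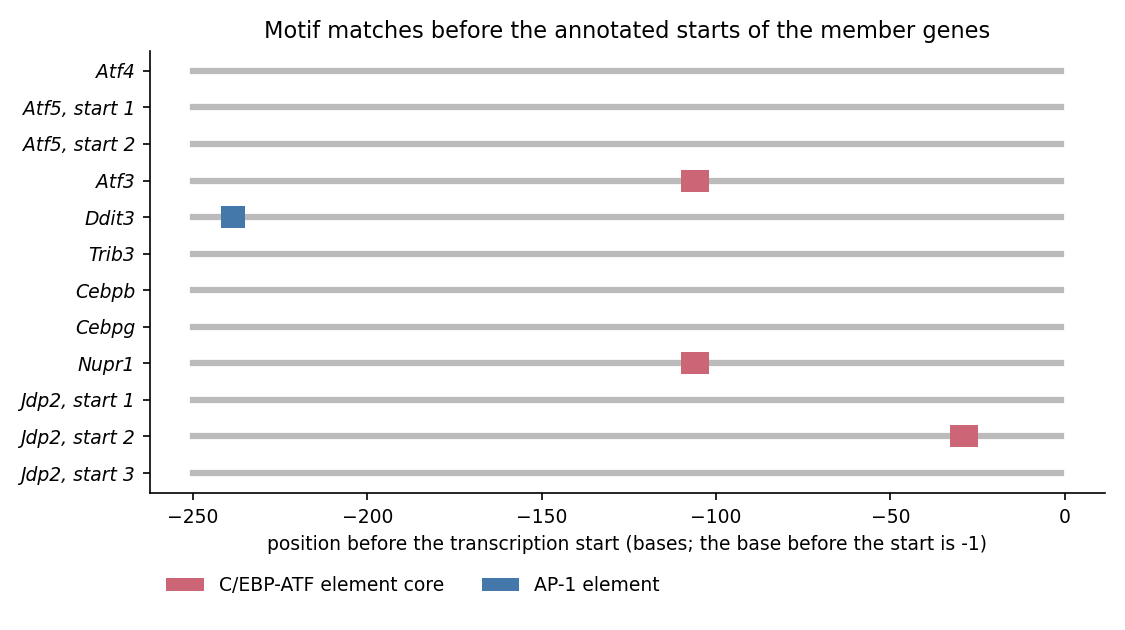
Position of the motif matches in the 250 bases before each annotated start of the 9 genes; each gray line is a window, and the x axis gives the position in bases before the start. Nupr1 and Atf3 share the position of the C/EBP-ATF core, from -110 to -103.

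In the comparison of AP with vehicle over all probes, limma was run on 24975 probes, those that both mice of the vehicle group, of the AP group or of both groups showed well above background. None passed a Benjamini-Hochberg adjusted p of 0.05 (0 of 24975, or 0%), the smallest adjusted p was 0.80, and 1515 probes had an unadjusted limma p under 0.05. All 10 probes of the 9 genes were well above background on all 4 arrays, and their adjusted p lay between 0.80 and 0.95, so no gene below passed the test. An exact permutation test over 2 against 2 mice cannot go below a two-sided p of 0.333, the value that each gene with groups that do not overlap has. Of the 9 genes, 6 had both AP mice above both vehicle mice (Trib3, Ddit3, Nupr1, Jdp2, Cebpg and Atf5), as did 20.1% of the genes tested, and 0 had both AP mice below both vehicle mice, as did 17.3%. Of the 9, 4 had an unadjusted limma p under 0.05 with a higher signal in AP mice (Trib3, Ddit3, Nupr1 and Jdp2), against 3.78% of the genes tested, and 0 with a lower signal, against 2.26%. The median log2 fold change was 0.94 over the 9 genes and 0.01 over all genes tested. Since the 9 genes were chosen with earlier results known, these counts are a description and not independent evidence of a direction.

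**Figure D3:**
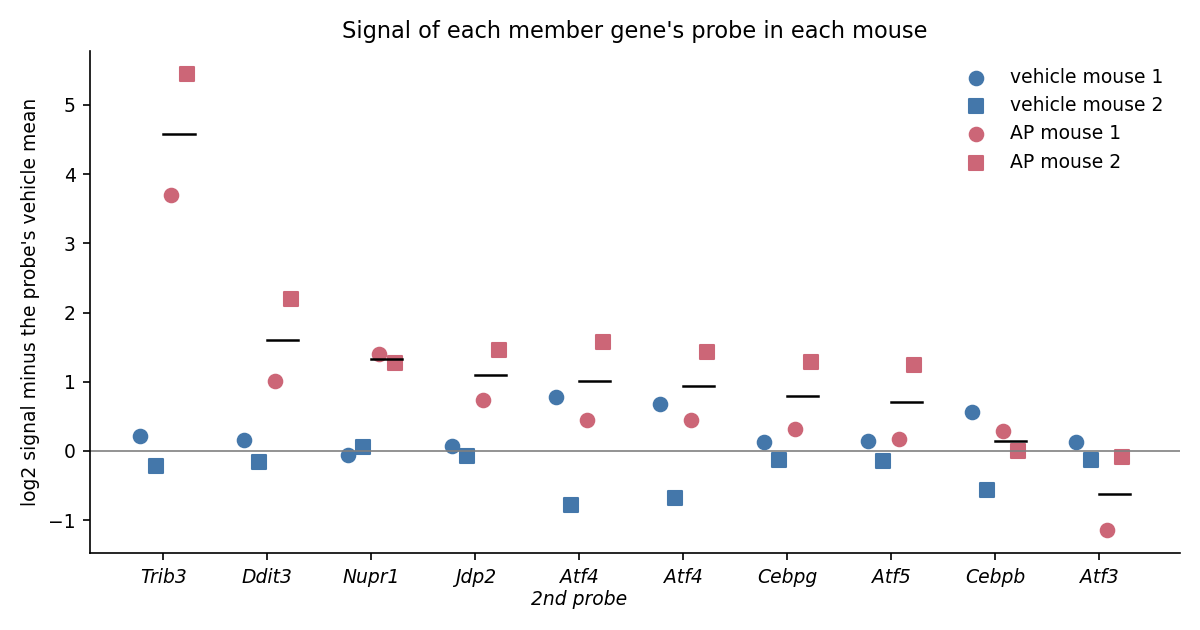
Signal of each probe of the 9 genes in each mouse, as log2 signal minus the mean of the probe in the vehicle mice. Points are single mice (circles mouse 1, squares mouse 2), and black bars are the AP means. Both AP mice lie above both vehicle mice for Trib3, Ddit3, Nupr1, Jdp2, Cebpg and Atf5.

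Among the effectors, Trib3 had the largest log2 fold change of all 12791 genes tested. Its log2 signal was 2.78 and 2.33 in the vehicle mice and 6.26 and 8.01 in AP mice 1 and 2. The lowest AP mouse lay 3.48 above the highest vehicle mouse, so the groups were far apart, and AP mouse 2 was 3.37-fold above AP mouse 1. The log2 fold change was 4.57 (SE 0.63, 95% interval 2.90 to 6.24, n = 2 per group), or 23.8-fold (unadjusted limma p = 0.0011, exact permutation p = 0.333). Without AP mouse 2 it was 3.70 and without AP mouse 1 it was 5.45. The difference between the AP mice, 1.75 on the log2 scale, was exceeded by 1.43% of the genes tested, and the median absolute difference over these genes was 0.27 between the AP mice and 0.32 between the vehicle mice.

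Ddit3 encodes CHOP, a C/EBP family member that ATF4 induces and that is linked to cell death under prolonged stress. Its log2 signal was 2.18 and 1.86 in the vehicle mice and 3.03 and 4.22 in AP mice 1 and 2. Both AP mice were above both vehicle mice, with AP mouse 2 the higher. The mean was 1.61 higher on the log2 scale (SE 0.45, 95% interval 0.41 to 2.81, n = 2 per group), or 3.05-fold (unadjusted limma p = 0.019, exact permutation p = 0.333), rank 71 among the genes tested. Without AP mouse 2 it was 1.01.

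Nupr1 encodes a small stress-induced chromatin protein. Its log2 signal was 4.66 and 4.78 in the vehicle mice and 6.12 and 5.99 in AP mice 1 and 2, the tightest groups of the 9 genes. The lowest AP mouse lay 1.22 above the highest vehicle mouse. The AP mean exceeded the vehicle mean by 1.34 (SE 0.21, 95% interval 0.79 to 1.88, n = 2 per group), or 2.52-fold (unadjusted limma p = 0.0018, exact permutation p = 0.333), and the difference stayed between 1.28 and 1.40 when any 1 mouse was left out. By unadjusted p it was rank 19 of the genes tested, and Trib3, with a larger difference and a larger spread, was rank 12.

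Jdp2 encodes a bZIP repressor that dimerizes with JUN and ATF proteins. Its log2 signal was 0.97 and 0.82 in the vehicle mice and 1.63 and 2.35 in AP mice 1 and 2, without overlap. In AP mice it was 2.14-fold higher, a log2 fold change of 1.1 (SE 0.31, 95% interval 0.27 to 1.93, n = 2 per group, unadjusted limma p = 0.020, exact permutation p = 0.333). Leaving out AP mouse 2 gave 0.74.

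Of the factors that dimerize with or act beside CHOP, Cebpg and Atf5 had smaller values with wide intervals. Cebpg encodes a C/EBP protein without an activation domain that pairs with ATF4, and its log2 signal was 1.73 and 1.47 in the vehicle mice and 1.92 and 2.88 in AP mice 1 and 2. Atf5 encodes an ATF4 relative that is itself under translational control, and its log2 signal was 8.01 and 7.72 in the vehicle mice and 8.03 and 9.11 in AP mice 1 and 2. For both genes AP mouse 1 was only just above vehicle mouse 1, by 0.18 for Cebpg and by 0.03 for Atf5, and AP mouse 2 alone stood clear. The log2 fold change was 0.80 (SE 0.39, 95% interval -0.22 to 1.82) for Cebpg and 0.71 (SE 0.42, 95% interval -0.40 to 1.82) for Atf5 (n = 2 per group, unadjusted limma p = 0.099 and 0.16, exact permutation p = 0.333 for each). Without AP mouse 2 they were 0.32 and 0.17, and without AP mouse 1 they were 1.28 and 1.25. In the log2 table of the authors the Atf5 groups overlapped, by 0.04.

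Atf4, the central factor of the response, had overlapping groups. Its brighter probe gave a log2 signal of 7.49 and 6.12 in vehicle mice 1 and 2 and of 7.26 and 8.23 in AP mice 1 and 2. The other probe gave 2.41 and 0.84 in the vehicle mice and 2.07 and 3.19 in AP mice 1 and 2. Both probes thus gave the same order of the mice: AP mouse 2 was highest, then vehicle mouse 1, AP mouse 1 and vehicle mouse 2. AP minus vehicle was 0.94 on the log2 scale (SE 0.59, 95% interval -0.62 to 2.50) for the brighter probe and 1.01 (SE 0.67, 95% interval -0.76 to 2.78) for the other (n = 2 per group, unadjusted limma p = 0.18 and 0.20, exact permutation p = 0.667 for each). These values rested on vehicle mouse 2 and AP mouse 2. Without vehicle mouse 2 they were 0.26 and 0.23, and without AP mouse 2 both were 0.45. They were 1.62 and 1.80 without vehicle mouse 1, and 1.42 and 1.57 without AP mouse 1. Vehicle mouse 2 is the mouse with the highest muscle, lymphocyte and macrophage marker signal and the lowest brown adipocyte sum, and the part of these in its low Atf4 value was not tested.

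Cebpb encodes a C/EBP activator of adipocyte differentiation and inflammation. Its log2 signal was 6.51 and 5.39 in vehicle mice 1 and 2 and 6.24 and 5.96 in AP mice 1 and 2. The AP mice lay between the vehicle mice, and vehicle mouse 2 was again the lowest. The difference between the means was 0.15 (SE 0.43, 95% interval -0.99 to 1.29, n = 2 per group, unadjusted limma p = 0.75, exact permutation p = 1.0). It was -0.41 without vehicle mouse 2, 0.71 without vehicle mouse 1, 0.01 without AP mouse 1, 0.29 without AP mouse 2 and -0.01 in the log2 table of the authors, so its direction was not settled.

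Atf3, a repressor bZIP gene that many stresses induce, was the only member with a lower mean signal in AP mice. Its log2 signal was 0.11 and -0.15 in the vehicle mice and -1.17 and -0.11 in AP mice 1 and 2. The groups overlapped, since AP mouse 2 was just above vehicle mouse 2, and AP mouse 1 was the lowest. The log2 fold change was -0.62 (SE 0.41, 95% interval -1.71 to 0.47, n = 2 per group, unadjusted limma p = 0.20, exact permutation p = 0.667), with -0.09 without AP mouse 1 and -1.15 without AP mouse 2, and -0.34 with normexp background correction. The C/EBP-ATF core in the windows of Atf3 and Nupr1 is the same, and its part in either signal was not tested.

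**Figure D4:**
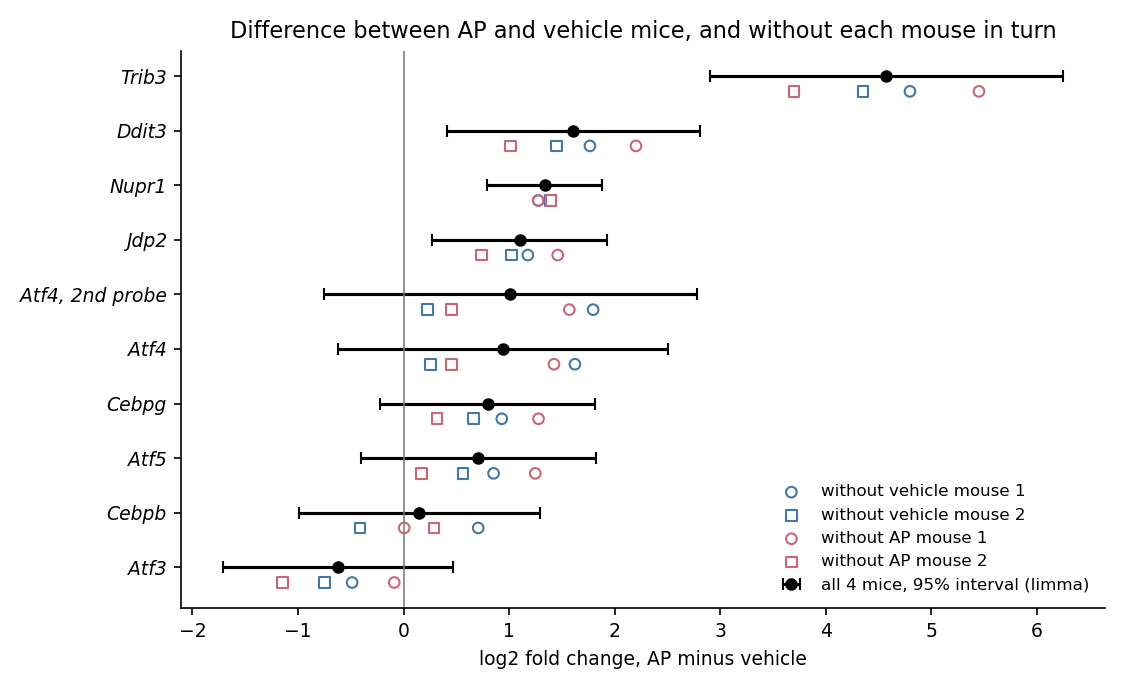
Log2 fold change of AP against vehicle for each probe of the 9 genes, with the limma 95% interval from all 4 mice (black), and the value when each mouse is left out (open symbols). The intervals of Trib3, Ddit3, Nupr1 and Jdp2 lie above 0. Leaving out vehicle mouse 2 brings the probes of Atf4 to 0.26 and 0.23 and that of Cebpb to -0.41.

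The AP mice differed from each other in the same direction for most of these genes. AP mouse 2 was above AP mouse 1 for 7 of 9 genes, all but Nupr1 and Cebpb, while this held for 48.8% of the genes tested. The genes are not independent of each other, and both values come from the same pair of arrays. Between these mice the muscle marker sum was 718 and 396 and the brown adipocyte sum was 7391 and 8247 in AP mice 1 and 2, and their part in the difference was not tested.

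How alike the patterns were was measured as the root mean square difference of log2 profiles over the 4 arrays, each centred on its own mean, so that 0 is an identical pattern. The profiles were not scaled, so the size of a change counts as well as its shape. Over the 36 pairs of the 9 genes, Atf5 and Cebpg were closest (0.06), followed by Cebpg and Jdp2 (0.18) and by Atf5 and Jdp2 (0.24). Trib3 was far from the other 8 genes, from 1.50 with Ddit3 to 2.61 with Atf3, and its range over the 4 mice was the widest of the 9. Trib3 and Ddit3 still put the 4 mice in the same order. Over 12136 genes well above background on all 4 arrays, the genes outside the 9 with the profile nearest to that of Trib3 were Chac1 (0.61), Gramd1b (0.83), which encodes an ER sterol transfer protein, and Slc6a9 (0.85). Nearest to Ddit3 were Slc25a33 (0.08), which encodes a mitochondrial pyrimidine nucleotide carrier, AI429214 (0.10) and Angptl6 (0.11), which encodes a secreted angiopoietin-like protein. Nearest to Atf4 were Gltpd2 (0.14), C77080 (0.15) and Fzd3 (0.16), which encodes a WNT receptor. With 4 arrays such nearness is a description of these libraries.

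The targets of ATF4 and CHOP were then described from a list of 50 genes, which was written with the leading genes of the study known and is not independent evidence of a direction. Of 45 that were tested, 43 had a log2 fold change above 0 and 2 below 0, where 51.4% of all genes tested were above 0. Without AP mouse 2, 32 of 45 were above 0. Both AP mice were above both vehicle mice for 23 of 45, and 0 were below, beside 20.1% and 17.3% of all genes tested. For 14 of 45 the unadjusted limma p was under 0.05 with a higher signal in AP mice, and for 0 with a lower signal, beside 3.78% and 2.26% of all genes tested. The median log2 fold change was 0.90, with 0.36 without AP mouse 2 and 0.83 without vehicle mouse 2. AP mouse 2 was above AP mouse 1 for 41 of 45, beside 48.8% of all genes tested.

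The target gene with the largest difference was Chac1, which encodes a glutathione-degrading enzyme, with a log2 signal of 0.02 and -0.98 in the vehicle mice and 2.06 and 3.83 in AP mice 1 and 2. Slc6a9, a glycine transporter gene, had 0.91 and 0.56 in the vehicle mice and 2.78 and 4.45 in the AP mice. Gadd45a, a growth arrest gene, had -1.28 and -0.49 in the vehicle mice and 0.53 and 3.29 in the AP mice. In these 3 genes, as in Trib3, the groups were apart and AP mouse 2 was the highest, and the log2 fold changes were 3.42 (SE 0.70), 2.88 (SE 0.60) and 2.79 (SE 0.97). Without AP mouse 2 that of Gadd45a was 1.41. At the other end were Slc7a5, which encodes a large neutral amino acid transporter, at -0.22 (SE 0.26) and Tnfrsf10b, a death receptor gene and CHOP target, at -0.06 (SE 0.58), both with overlapping groups. Tnfrsf10b was at 0.03 when arrays were scaled to their median. It was at 0.57 without vehicle mouse 1, 0.47 without AP mouse 1, -0.69 without vehicle mouse 2 and -0.58 without AP mouse 2. Slc7a5 was at 0.03 without vehicle mouse 2 and at -0.47 without vehicle mouse 1.

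Grouped by function after the values were known, all 11 aminoacyl-tRNA synthetase genes of the list had a log2 fold change above 0, from 0.23 for Wars to 1.14 for Eprs, with groups apart for 7 of 11, beside 51.4% above 0 and 20.1% with both AP mice above over all genes tested. Without AP mouse 2, 9 of 11 were above 0, Wars was at -0.12 and the median of the 11 was 0.20 in place of 0.70. Without AP mouse 1 this median was 1.25. All 5 genes of serine synthesis and one-carbon metabolism were also above 0, from 0.10 for Psph to 1.93 for Mthfd2, with groups apart for Mthfd2 alone. Mthfd2, a mitochondrial folate enzyme gene, had a log2 signal of -1.77 and -1.46 in the vehicle mice and -0.98 and 1.61 in AP mice 1 and 2, and without AP mouse 2 the log2 fold change was 0.63. In the absence of AP mouse 2, 2 of the 5 genes were above 0, and the median was -0.10 in place of 0.64. That median was 1.41 without vehicle mouse 2 and 1.37 without AP mouse 1. Phgdh, the gene of the first serine synthesis enzyme, was at -0.13 without vehicle mouse 1 and at -0.10 without AP mouse 2. It was at 1.41 without vehicle mouse 2 and at 1.37 without AP mouse 1. Psph was at -0.45 without vehicle mouse 2, at -0.46 without AP mouse 2 and at -0.06 in the log2 table of the authors. It was at 0.64 without vehicle mouse 1 and at 0.66 without AP mouse 1. Of 5 amino acid transporter genes, 4 were above 0, from -0.22 for Slc7a5 to 2.88 for Slc6a9, with groups apart for 2 of 5, and 3 of 5 were above 0 without AP mouse 2, with a median of 0.05 in place of 1.08. Of the 3 genes of hormones and growth factors tested, Gdf15 was 2.45 higher on the log2 scale with groups apart, and 1.39 higher without AP mouse 2. Fgf21 was 2.26 higher, but AP mouse 1 (-1.36) was below vehicle mouse 1 (-0.44), and the value rested on AP mouse 2 (2.98), without which it was 0.09. Vegfa, an angiogenic factor, was at 0.06 with overlapping groups, at -0.10 with normexp and at -0.11 in the log2 table of the authors.

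**Figure D5:**
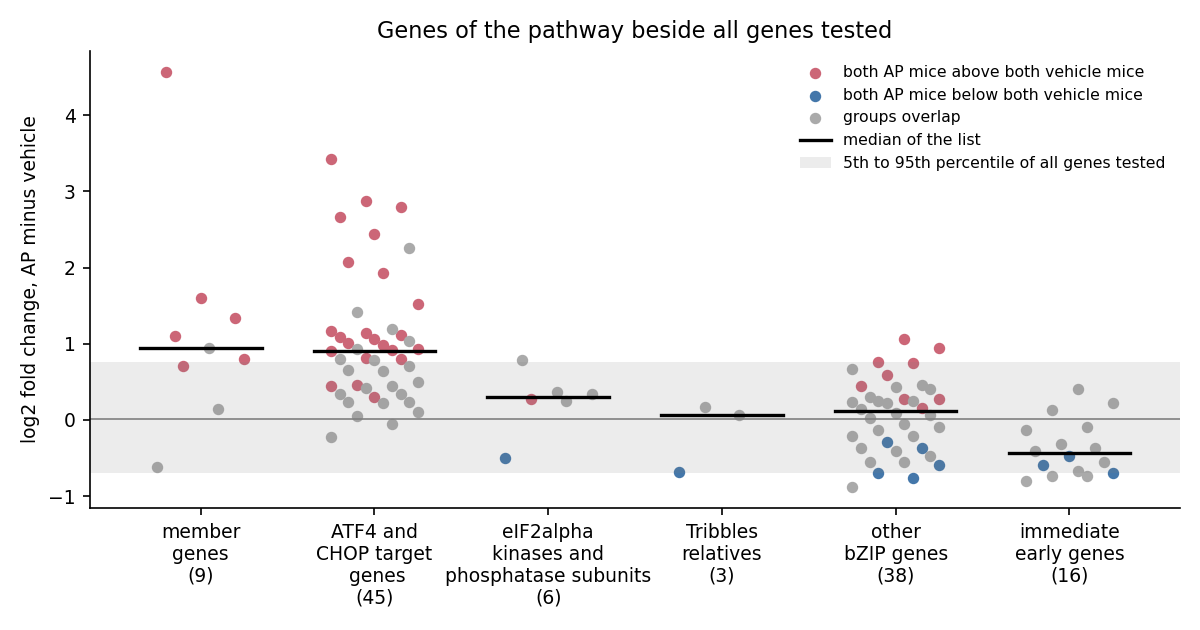
Log2 fold change of AP against vehicle for each tested gene of the 9 genes and of 5 related lists (number tested in parentheses). Red and blue points have both AP mice above or below both vehicle mice, black bars are medians, and the gray band spans the 5th to 95th percentile of all genes tested. The 9 genes (median 0.94) and the target genes (0.90) lie mostly above 0, and the immediate early genes (-0.44, and -0.13 without vehicle mouse 1) mostly below.

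The relatives of Trib3 gave smaller values. Trib1, which targets C/EBPα for degradation, had a log2 fold change of 0.16 (SE 0.44), and Stk40 had 0.06 (SE 0.49), or -0.10 in the log2 table of the authors. Trib2 was at -0.69 (SE 0.34), with a log2 signal of -0.89 and -0.13 in the vehicle mice and -1.36 and -1.04 in the AP mice. Trib1 was at -0.42 without vehicle mouse 1 and at 0.75 without vehicle mouse 2, and Stk40 was at -0.60 without AP mouse 2 and at 0.73 without AP mouse 1. The AP mice were below the vehicle mice for Trib2, on the opposite side to Trib3, and without vehicle mouse 2 its log2 fold change was -0.31.

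Upstream of Atf4, the probes of the eIF2α kinases had log2 fold changes between -0.50 and 0.34. Eif2ak3, which encodes PERK, had a log2 fold change of 0.27 (SE 0.20), with both AP mice (0.96 each) above both vehicle mice (0.71 and 0.67). Eif2ak4 (GCN2) had 0.34 (SE 0.30) and Eif2ak1 (HRI) had 0.25 (SE 0.26), both with overlapping groups and resting on vehicle mouse 2, without which they were 0.01 and 0.0025. Without vehicle mouse 1 these 2 values were 0.68 and 0.50. Eif2ak2 (PKR) was at -0.50 (SE 0.20), with both AP mice below both vehicle mice. Whether the Eif2ak3 probe also detects the transgene, which holds the PERK kinase domain, was not tested. Of the phosphatase subunits that reverse eIF2α phosphorylation, Ppp1r15a (GADD34), itself a target gene, had 3.13 and 2.34 in the vehicle mice and 2.57 and 4.46 in AP mice 1 and 2. Its groups overlapped, with a log2 fold change of 0.78 (SE 0.71), and of -0.17 without AP mouse 2. Ppp1r15b had 0.37 (SE 0.44), and -0.14 without AP mouse 2.

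The other bZIP genes, which share the DNA-binding fold of the bZIP members, were counted in the same way. Of 38 tested, 22 had a log2 fold change above 0 and 16 below 0, where 51.4% of all genes tested were above 0. In the log2 table of the authors 18 were above 0 and 20 below 0. The median was 0.12, and -0.04 in that table. It was 0.23 without vehicle mouse 1, 0.04 without vehicle mouse 2 and 0.05 without AP mouse 2. Both AP mice were above both vehicle mice for 9 of 38 (23.7%) and below for 5 (13.2%), close to the 20.1% and 17.3% of all genes tested. The genes with the largest positive values were Nfil3 (1.06), a repressor at clock-controlled elements, Creb5 (0.95) and Hlf (0.76). Jund (-0.76), an AP-1 subunit, and Dbp (-0.70), a clock output gene, had the largest negative values among genes well above background in all mice. The SE was 0.33 for Nfil3, 0.26 for Creb5 and 0.23 for Jund, and the groups were apart in each of these 3 genes. Nfil3 was at 0.68 without AP mouse 1, Hlf at 0.26 without vehicle mouse 1, and Dbp at -0.30 without vehicle mouse 2.

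Atf3 is also known as an immediate early gene, and 18 such genes were listed as a measure of the handling of the tissue. Of 16 tested, 3 had a log2 fold change above 0 and 13 below 0, where 51.4% of all genes tested were above 0. The median was -0.44, and -0.13 without vehicle mouse 1. Without AP mouse 1, 6 of 16 were above 0, and without AP mouse 2, 5 were. Both AP mice were below both vehicle mice for 3 of 16 (18.8%, beside 17.3% of all genes tested), and for 0 was the unadjusted p under 0.05, beside 3.78% of all genes tested with a higher and 2.26% with a lower signal. Junb (0.41), Zfp36 (0.22) and Nr4a1 (0.13, but -0.03 in the log2 table of the authors) had the largest positive values, and Dusp1 (-0.81) and Ier3 (-0.74) the largest negative ones, all with overlapping groups. Each rested on single mice. Dusp1 was at 0.07 without AP mouse 1 and Ier3 at -0.02 without vehicle mouse 1, while Junb was at 0.01 and Zfp36 at -0.16 without vehicle mouse 1, and Nr4a1 was at -0.37 without AP mouse 2. The summed signal of the list was 89.9 and 89.5 in the vehicle mice and 64.0 and 79.9 in AP mice 1 and 2, with the highest mean signal over the 4 arrays at the Jun probe, and with Egr3 and Nr4a3 well above background on no array. AP mouse 1 had the lowest sum and also the lowest Atf3 signal, and the part of handling in the Atf3 value was not tested.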

How the data were processed

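BAT RNA of 4 mice was hybridized to 1-color Agilent arrays. The authors read the spots with Feature Extraction 10.7.1.1 and deposited linear intensities without normalization between arrays. The deposited log2 table holds the processed values of the authors for the same arrays. Its array differences correlated with those of the log2 signals (r at least 0.9998 over 24868 probes), its column medians were -0.28, -0.16, -0.44 and -0.29, and its scaling and the value on which each probe is centred are not stated in the sources used here.

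Control spots and outlier spots were left out, spots of a probe were averaged, and the 75th percentile was subtracted on the log2 scale. Of 55681 probes, 26592 were named through RefSeq (GRCm38.p6, names only, since the array design names another build). AP was tested against vehicle with limma 3.58.1 in R 4.3.3 (lmFit, eBayes), with Benjamini-Hochberg adjustment over all probes fitted. The fit was checked on simulated data. A gene was represented by its brightest tested probe. The members and lists were chosen with earlier results of these data known. From each gene list the 3 largest positive and 2 largest negative differences among genes well above background on all arrays are named, with all Tribbles relatives and all eIF2α kinase and phosphatase genes. The functional subgroups of targets, and the genes named from them, were chosen after their values were seen. The labels call the mice replicates, and their number limits the precision. Alternatives were normexp (offset 50), quantile or median scaling, the deposited table, other filters, a variance trend, the methods' t-test, replicate blocks, probe means and leaving out each mouse.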

Additional observations from a re-analysis of the deposited data

How the results depend on the processing

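In every setting with a count over all probes, which the probe means do not have, 0 probes had an adjusted p under 0.05. Probes with an unadjusted p under 0.05 numbered 1515, and 2613 without a filter (55681 probes tested), and 1003 to 2178 when 1 mouse was left out. Of 149 alternative values for the 10 probes, 147 kept their direction. The exceptions were Cebpb at -0.014 in the deposited log2 table and at -0.41 without vehicle mouse 2 (range -0.41 to 0.71 when 1 mouse was left out). The other filters, the variance trend, the methods' t-test and the replicate blocks leave a log2 fold change unchanged. Probe means do so too for a gene with a single probe. Such values could not turn and are included in the 149. The count of 4 members with an unadjusted p under 0.05 and a higher signal was 2 by the methods' t-test. Of all genes, 3.17% passed that t-test with a higher signal, beside 3.78% in the main fit. Members with all AP mice above all vehicle mice numbered 5 in the deposited table, where 11.7% of all genes did, and 6 to 8 when 1 mouse was left out, where 32.7% to 42.1% of all genes did. Their median log2 fold change was 0.45 to 1.28 when 1 mouse was left out. For the target genes, leaving out 1 mouse (added after the data were seen) gave counts of 26 to 40 in place of 23, beside the same 32.7% to 42.1%, and medians of 0.36 to 1.32 in place of 0.90. The log2 fold change of Trib3 was 3.70 to 5.45 without 1 mouse and 4.41 to 4.66 over the scalings. The deposited table moved the median log2 fold change of all named genes from 0.01 to -0.15, so values there are lower by about that shift, and the share of higher signal among genes with an unadjusted p under 0.05 went from 62.6% to 31.7%. It was 74.0% with median scaling. Same-numbered mice did not deviate together (r = -0.13). With the replicate block 1226 probes and 4 members had an unadjusted p under 0.05, and the crossed pairing, added after the data were seen, gave 1566 and 5. These members had a higher signal in AP mice, as did 3.02% and 3.54% of all genes at that threshold. No block for slide or scan could be fitted, with 1 of each. The normexp alternative used the median spot signal.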
